A study of Rattus norvegicus with 28 samples.

Results

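Gene expression was compared in the amygdala of 12-day rat pups after paired and after unpaired odor-shock training. The comparison used 8 of the 28 arrays of the series, 4 from paired and 4 from unpaired pups, as given by the sample titles. The labels list no agent for either 12-day group. In a session of 45 min, both groups received 11 presentations of a peppermint odor of 30 s, 4 min apart, together with tail shocks of 1 s at 0.5 mA. In paired pups each shock fell at the end of the odor. In unpaired pups, the controls, it came 2 min after the odor, so that both groups had the same number of odors and shocks. Pups were killed directly after the session, and total RNA from 50 to 80 mg of dissected tissue was hybridised to 1 array per sample. The other 20 arrays of the series came from 8-day pups given saline or corticosterone.

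Replicates 1 and 2 of both groups were on the smaller of 2 Affymetrix array designs, and replicates 3 and 4 of both groups were on the larger one. The training groups were therefore compared within each design. The deposited values were log2 expression of probe sets, of which 15866 were present on both designs, and the medians of the 8 arrays lay between 6.38 and 6.46. Precision was limited by the number of arrays. Whether tissue of 1 pup or of several went into a sample is not stated in the labels, and the p-values reflect spread between samples alone.

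The amygdala links sensory cues with threat, and learning there involves glutamate receptors, calcium-dependent kinases and new transcription. Immediate early genes are transcribed within minutes of strong neuronal activity, through factors such as CREB that bind the cyclic AMP response element, and several of their products act at synapses. Dopamine reaches the amygdala in axons from the midbrain, while its receptors are made by local neurons, and striatal projection neurons next to the amygdala carry the same receptors at high levels. Infant rats learn to approach an odor paired with shock, and older pups learn to avoid it. Dopamine in the amygdala as a modulator of this transition is the topic named in the title.

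The genes of neuronal activity Btg2, Arc and Nr4a1 measured higher in paired pups in both array designs, and the kinase gene Camk2a measured lower. Btg2 differed by a log2 value of 0.87 (SE 0.20), or 1.82-fold, Arc by 0.47 (SE 0.15) and Nr4a1 by 0.43 (SE 0.14), with n = 4 arrays per group. Camk2a differed by -0.62 (SE 0.14). After adjustment over all probe sets none of the 4 was called. Of the 29 measured immediate early genes, 15 were higher and 14 lower in paired pups, with a median difference of 0.01. The transcripts with the widest gaps, such as Ttr of the choroid plexus and the dopamine transporter Slc6a3, differed between the groups in 1 array design and little in the other.

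Limma with the array design as a block called 0 of 15866 probe sets (0%) at a Benjamini-Hochberg adjusted p under 0.05. The lowest adjusted p was 0.682, and Krt18 had this value. At an unadjusted p under 0.05, 468 probe sets (2.95%) differed, 264 higher (1.66%) and 204 lower (1.29%) in paired pups. Another description asked that both paired arrays lie on the same side of both unpaired arrays in each design. This held for 537 probe sets (3.38%), 318 higher (2.00%) and 219 lower (1.38%) in paired pups. An exact two-sided permutation test over the 36 relabellings of training within the designs gives each of these p = 0.0556, the smallest value this design allows. Without any training difference, fractions of 0.05 and 0.0556 would meet the 2 criteria on average. The shares found, 2.95% and 3.38%, lay below these.

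The 2 array designs did not give the same differences. Across the 15866 probe sets the pairing difference in replicates 3 and 4 and that in replicates 1 and 2 had a Pearson correlation of -0.08 and a Spearman correlation of -0.03, and 41.3% had the same sign. Probe sets of 1 array share its sample and normalization, so this correlation is a description only. A difference of over 1 log2 unit was seen in 46 probe sets in replicates 3 and 4 and in 32 in replicates 1 and 2. It was seen in both designs with the same sign for 0 probe sets and with opposite signs for 4. A test of the difference between the designs, added after these values had been seen, gave 0 probe sets (0%) at an adjusted p under 0.05 and 591 (3.72%) at an unadjusted p under 0.05. The array set held 68.2% of the variance of the 8 arrays and training 4.72%.

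**Figure D1:**
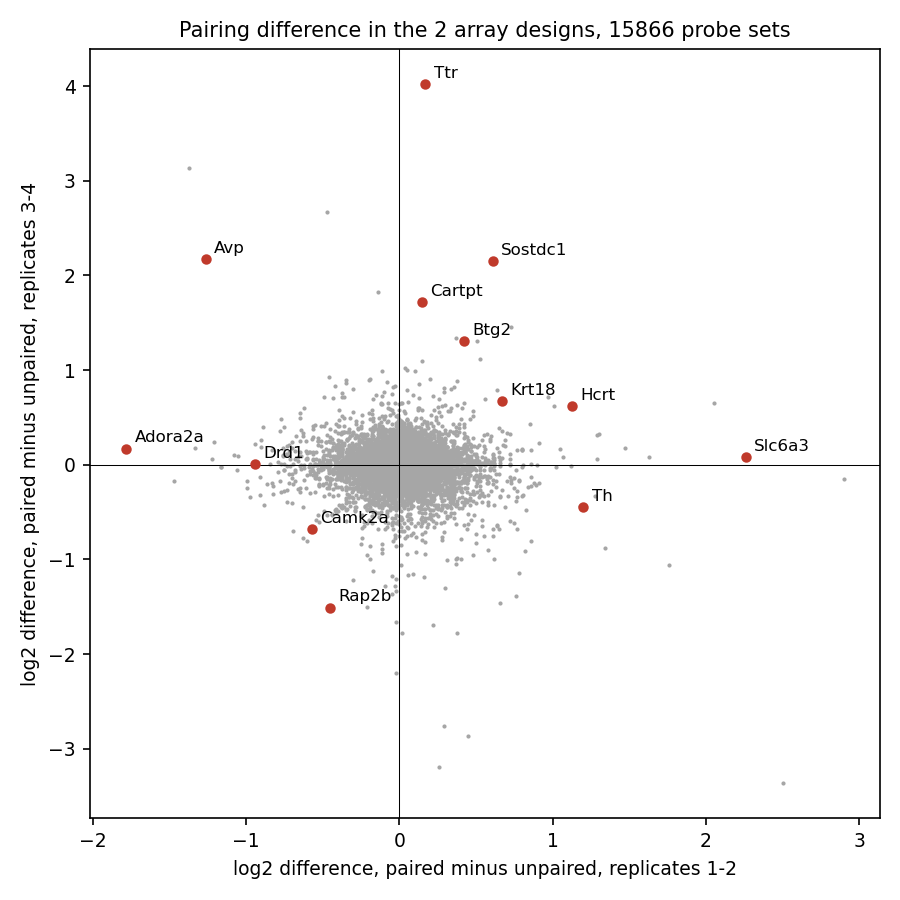
Each point is 1 of 15866 probe sets. The x axis gives its log2 difference, paired minus unpaired, in replicates 1 and 2 (smaller design), and the y axis the same in replicates 3 and 4 (larger design), with named genes in red. Ttr and Avp lie far up the y axis and Slc6a3 far along the x axis, while Krt18, Btg2, Camk2a and Rap2b lie on the same side of 0 in both designs (Pearson correlation -0.08).

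Levels of regional marker genes differed between the 2 sets of arrays in both training groups. The mean log2 level of the 11 measured genes of the striatal projection neuron list was 6.62, 6.59, 9.14 and 9.07 in paired replicates 1 to 4, against 6.93, 7.49, 9.04 and 9.02 in unpaired replicates 1 to 4. It was thus high in replicates 3 and 4 of both groups. The choroid plexus list (12 genes) ran the other way, at 7.11, 7.03, 5.64 and 6.34 in paired arrays against 6.82, 6.87, 5.12 and 5.49 in unpaired arrays. The list of amygdala and cortical glutamatergic neurons (5 genes) was present throughout, at 8.14 to 9.20 in paired and 8.37 to 9.20 in unpaired arrays. Saline pups of 8 days showed the same ordering of the striatal list, from 8.23 to 8.81 on the larger and from 6.21 to 7.80 on the smaller design. Array design and the tissue taken cannot be told apart here, and neither can fewer cells of a type and less RNA per cell in bulk samples.

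**Figure D2:**
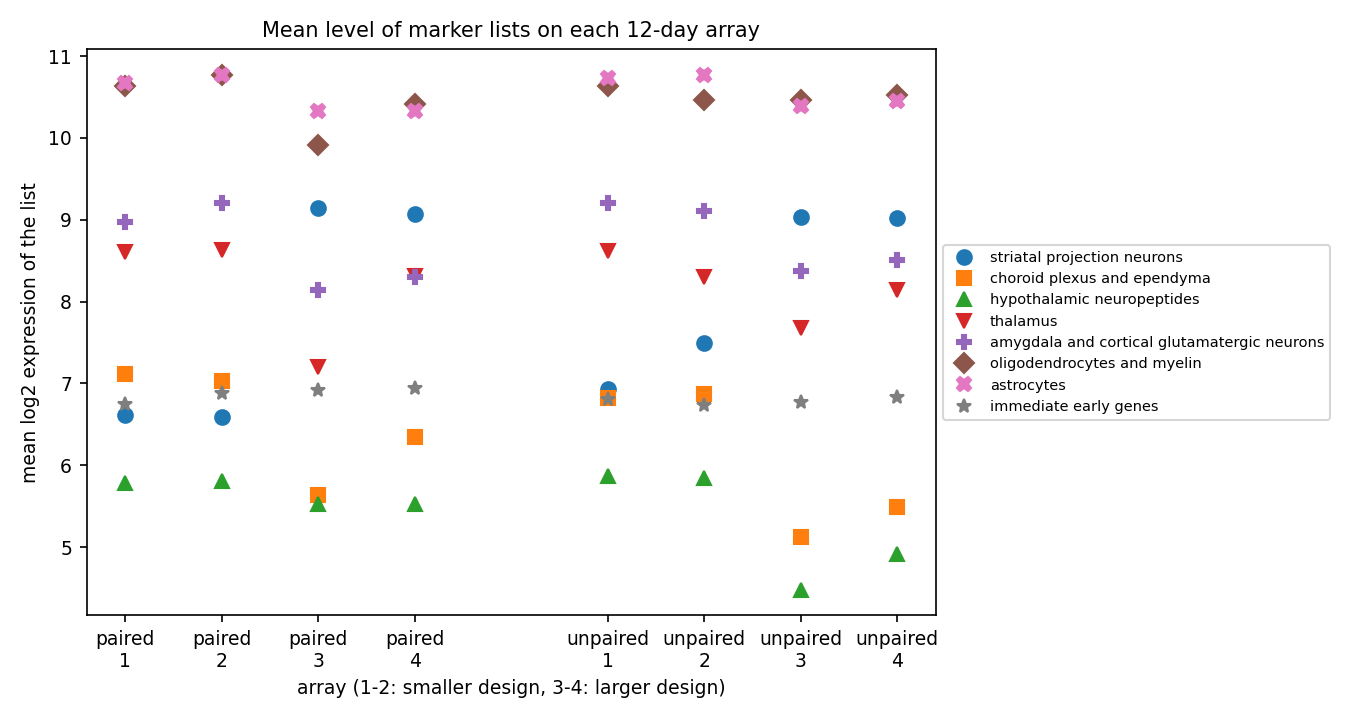
Mean log2 expression of the measured genes of 8 lists (y axis) on each 12-day array (x axis), 1 symbol per list, paired arrays on the left and unpaired arrays on the right. The striatal list is high in replicates 3 and 4 of both groups (9.02 to 9.14), the choroid plexus list is low there, and the immediate early list stays between 6.74 and 6.95.

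Among the 29 measured immediate early genes, 15 were higher and 14 lower in paired pups, with a median of 0.01 against a median of -0.01 over all probe sets. Of these genes 3 had an unadjusted p under 0.05 and kept the order of the groups in both designs, Btg2, Arc and Nr4a1, all higher in paired pups. Over all probe sets 1.66% were higher at an unadjusted p under 0.05 and 2.00% kept the order higher in both designs. The mean level of the list was 6.75, 6.88, 6.92 and 6.95 in paired arrays, against 6.81, 6.74, 6.77 and 6.83 in unpaired arrays. The groups thus overlapped for the list as a whole in the smaller design.

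Btg2 encodes an antiproliferative protein that is induced by neuronal activity. It measured 4.49, 4.64, 7.30 and 7.18 in paired arrays, against 4.38, 3.91, 6.02 and 5.84 in unpaired arrays. Paired arrays were higher within each design, by 0.42 in replicates 1 and 2 and by 1.31 in replicates 3 and 4, where the level was also higher in both groups (unadjusted p = 0.00196 by limma, adjusted p = 0.999). In replicates 1 and 2 the values of both groups lay below log2 5, the level used for naming genes. The other probe set of Btg2 measured 5.27, 5.58, 5.69 and 5.48 in paired arrays, against 4.36, 5.29, 5.36 and 5.21 in unpaired arrays, a difference of 0.45 (SE 0.20, unadjusted p = 0.0511). Its unpaired replicate 2 lay above paired replicate 1, so the groups overlapped there. Without unpaired replicate 1 that difference was 0.24.

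Arc encodes a postsynaptic protein that regulates the trafficking of AMPA receptors. It measured 9.09, 9.59, 8.18 and 8.44 in paired arrays, against 8.98, 8.78, 7.58 and 8.08 in unpaired arrays. The pairing difference was nearly equal in the 2 designs, 0.46 and 0.48 (unadjusted p = 0.0123, adjusted p = 0.999 by limma), although the level itself was lower in replicates 3 and 4 of both groups. Nr4a1, an orphan nuclear receptor and transcription factor, measured 9.38, 9.59, 9.47 and 9.95 in paired arrays, against 9.25, 9.23, 8.90 and 9.29 in unpaired arrays. Each paired array lay above all 4 unpaired arrays, by the least margin in paired replicate 1 (unadjusted p = 0.014, adjusted p = 0.999 by limma).

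Promoters of 2 of these 3 genes were matched by symbol in the RefSeq promoter table of assembly GRCr8, and they are shown because Btg2 and Nr4a1 kept the order of the groups in both designs. Each sequence holds the 250 bases before the annotated start, 5′ to 3′ on the strand of the gene. Capitals mark the cyclic AMP response element TGACGTCA and its short form TGACG or, on the other strand, CGTCA. Btg2 lies on the minus strand at chr13:48087691-48087940 and Nr4a1 on the plus strand at chr7:134259888-134260137.
Btg2: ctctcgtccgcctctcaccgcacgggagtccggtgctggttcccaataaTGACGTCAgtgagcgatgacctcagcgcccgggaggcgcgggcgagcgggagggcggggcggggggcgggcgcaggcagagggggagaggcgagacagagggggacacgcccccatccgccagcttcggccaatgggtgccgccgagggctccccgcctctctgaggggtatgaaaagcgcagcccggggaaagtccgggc
Nr4a1: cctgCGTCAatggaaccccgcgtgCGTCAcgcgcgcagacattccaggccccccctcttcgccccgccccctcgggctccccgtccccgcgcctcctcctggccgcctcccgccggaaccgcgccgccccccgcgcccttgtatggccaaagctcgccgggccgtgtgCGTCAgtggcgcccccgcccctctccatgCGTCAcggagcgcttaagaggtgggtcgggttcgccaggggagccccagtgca
The Btg2 promoter held 1 full element, with which its 2 matches to the short form overlap. The Nr4a1 promoter held 0 full elements and 4 matches to the short form. The full element was in 531 of 33469 promoters of the same length (1.59%) and in 6 of 31 promoters of measured immediate early genes (19.4%). The short form, on either strand and counting those inside full elements, was in 6097 of 33469 promoters (18.2%) and in 16 of those 31 (51.6%). A match describes letters in this window and not a site in use.

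Dusp1, a phosphatase that switches off MAP kinases and is also induced by glucocorticoids, had 2 probe sets with nearly equal differences, 0.38 (SE 0.17, unadjusted p = 0.0504) and 0.39 (SE 0.18, unadjusted p = 0.0551). The brighter one measured 9.51, 9.66, 9.04 and 9.46 in paired arrays, against 9.42, 8.90, 8.60 and 9.21 in unpaired arrays. Unpaired replicate 4 lay above paired replicate 3, so the groups overlapped in the larger design. Junb, a subunit of the AP-1 transcription factor, measured 6.39, 6.73, 7.10 and 7.05 in paired arrays, against 6.33, 6.58, 6.77 and 6.75 in unpaired arrays (0.21, SE 0.11). Zfp36, an RNA-binding protein that destabilizes messages, differed by 0.20 (SE 0.14) and Plk2, a kinase of activity-dependent synapse scaling, by 0.10 (SE 0.07). Neither Junb, Zfp36 nor Plk2 had an unadjusted p under 0.05.

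Other well-known members of this group had smaller or negative differences beside those of Btg2 and Nr4a1. Egr1, a zinc finger transcription factor used as a marker of amygdala activity, measured 11.63, 11.23, 11.31 and 11.28 in paired arrays, against 11.87, 11.57, 11.11 and 11.07 in unpaired arrays. It was lower in paired pups in replicates 1 and 2 (-0.29) and higher in replicates 3 and 4 (0.20), and differed by -0.04 over all 8 arrays (SE 0.13). Egr2 differed by 0.07 (SE 0.12), Egr4 by -0.04 (SE 0.07), Nr4a3 by -0.14 (SE 0.09) and 3 Jun probe sets by -0.12 (SE 0.11), -0.03 (SE 0.09) and -0.01 (SE 0.14). Bdnf, a neurotrophin, measured 7.11, 7.32, 6.91 and 6.86 in paired arrays, against 7.59, 7.19, 6.81 and 7.40 in unpaired arrays (-0.20, SE 0.15). Homer1, whose short isoform is induced by activity, had 4 probe sets at this level, with differences of -0.27 (SE 0.16), -0.11 (SE 0.07), -0.12 (SE 0.16) and -0.05 (SE 0.08). Members of the list thus lay on both sides of 0 on these arrays.

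**Figure D3:**
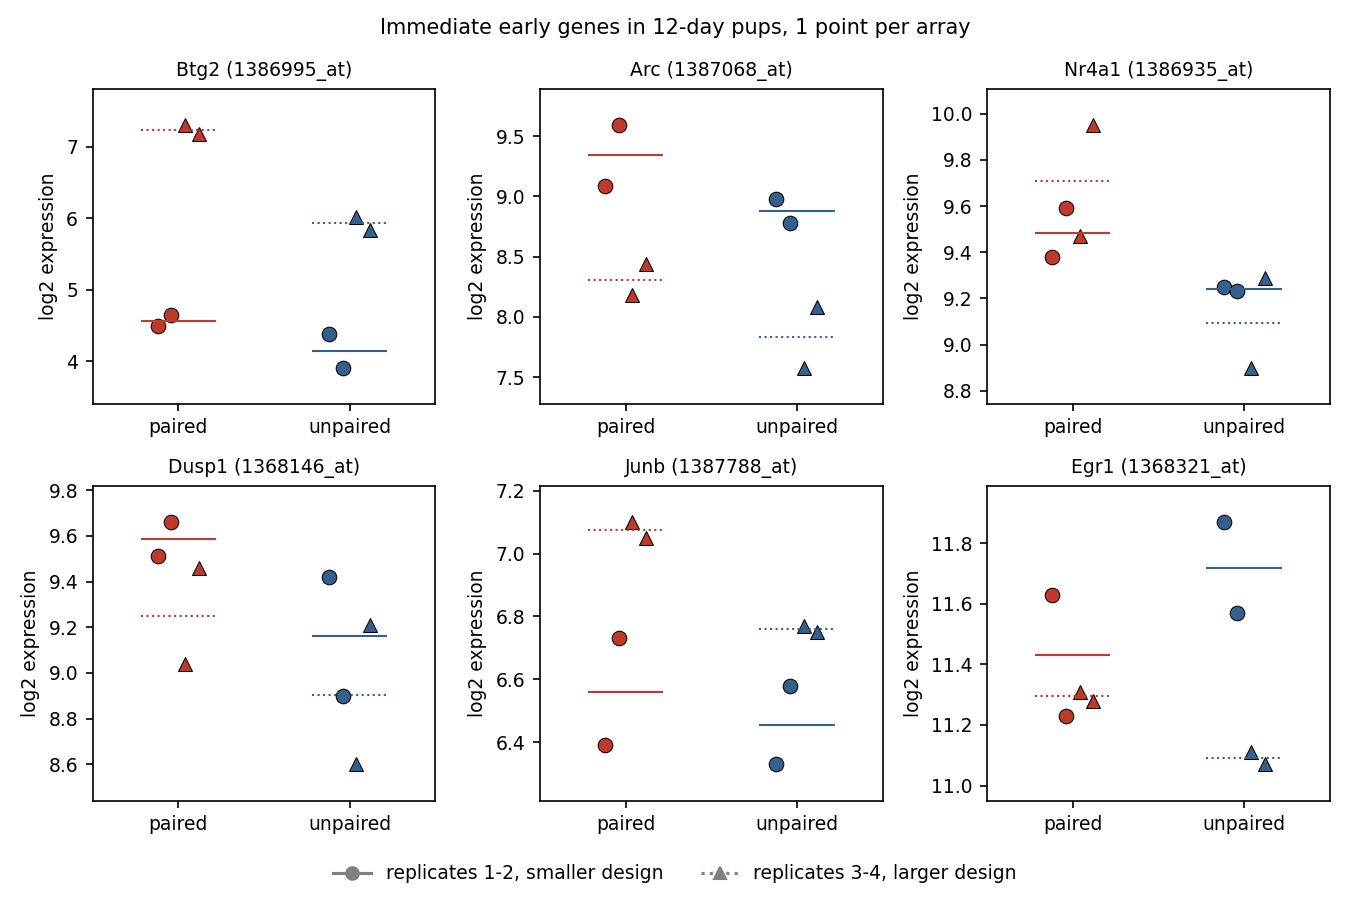
Log2 expression (y axis) of 6 immediate early genes in paired (left, red) and unpaired (right, blue) pups, 1 point per array. Circles are replicates 1 and 2 and triangles replicates 3 and 4, and the lines are the means of each pair of arrays. Btg2, Arc and Nr4a1 are higher in paired arrays for both symbols, Dusp1 and Junb overlap in at least 1 design, and Egr1 is lower in paired circles (-0.29) and higher in paired triangles (0.20).

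Among genes with a symbol and a group mean of log2 5 or more, 93 genes kept the order higher in paired pups in both designs, and the 14 with the smallest unadjusted p included these 3 immediate early genes. First was Krt18, a keratin of epithelial cells, at 5.77, 5.68, 4.85 and 5.12 in paired arrays against 5.06, 5.06, 4.39 and 4.24 in unpaired arrays. Its difference was 0.67 in each design (SE 0.10, unadjusted p = 8.6e-05, adjusted p = 0.682 by limma) and ranged from 0.62 to 0.72 when 1 array was left out. Hyou1, a chaperone of the endoplasmic reticulum, measured 6.49, 6.44, 5.63 and 6.10 in paired arrays, against 6.33, 5.83, 5.00 and 4.96 in unpaired arrays (0.63, SE 0.17). Eml2, a microtubule-binding protein, also differed by 0.63 (SE 0.19), with 0.15 in replicates 1 and 2 and 1.10 in replicates 3 and 4, where its level was lower in both groups.

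The other genes of this direction differed by less. Dscam, an adhesion molecule of neurons, measured 7.02, 7.10, 6.06 and 5.90 in paired arrays, against 6.72, 6.62, 5.69 and 5.58 in unpaired arrays (0.37, SE 0.09). Gfra2, the receptor of the growth factor neurturin, measured 8.79, 8.77, 7.94 and 8.12 in paired arrays, against 8.70, 8.44, 7.46 and 7.72 in unpaired arrays (0.32, SE 0.10). Both of these surface proteins were lower in replicates 3 and 4 than in replicates 1 and 2 regardless of training. Msx1, a homeobox transcription factor, differed by 0.43 (SE 0.14), Hint3 by 0.35 (SE 0.10), MGC72638 by 0.29 (SE 0.07), LOC192234 by 0.27 (SE 0.09), the calcium-binding Golgi protein Nucb1 by 0.24 (SE 0.07) and the mitochondrial ribosomal protein Mrpl17 by 0.20 (SE 0.06). Their unadjusted p-values lay between 0.00368 and 0.0175, and every adjusted p was 0.999.

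In the other direction 63 genes were lower in paired pups in both designs. Camk2a, the alpha subunit of the calcium- and calmodulin-dependent kinase that is needed for long-term potentiation, measured 6.22, 6.68, 6.83 and 6.76 in paired arrays, against 6.78, 7.26, 7.46 and 7.48 in unpaired arrays. The difference was -0.57 in replicates 1 and 2 and -0.68 in replicates 3 and 4 (unadjusted p = 0.00196, adjusted p = 0.999 by limma). The other Camk2a probe set was close to the floor of the arrays (mean 2.95) and differed by -0.04. Rap2b, a small GTPase, had the lowest difference of the 14, -0.98 (SE 0.23). It measured 4.53, 4.27, 4.53 and 3.96 in paired arrays, against 4.83, 4.88, 5.92 and 5.58 in unpaired arrays. Apc, a scaffold of Wnt signalling that also binds microtubules, differed by -0.33 (SE 0.07), with -0.33 and -0.34 in the 2 designs, and its other probe set by -0.19 (unadjusted p = 0.042).

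Map2, a microtubule protein of dendrites, measured 9.44, 9.97, 10.00 and 9.85 in paired arrays, against 10.25, 10.70, 10.28 and 10.16 in unpaired arrays (-0.53, SE 0.16), and its other, brighter probe set differed by -0.12. Kif1b, a kinesin of axonal transport, differed by -0.45 (SE 0.13), Cplx2, a complexin of synaptic vesicle release, by -0.31 (SE 0.10), and Cacna1d, an L-type calcium channel subunit, by -0.41 (SE 0.13). Rtn4r, the Nogo receptor, differed by -0.45 (SE 0.14) on 1 probe set but by -0.19 and 0.16 on the other 2, so its probe sets disagreed. Tef, a transcription factor with a daily rhythm, differed by -0.56 (SE 0.13), Pdlim5, a scaffold of the actin cytoskeleton, by -0.49 (SE 0.14), the taurine transporter Slc6a6 by -0.41 (SE 0.11) and Id2, an inhibitor of helix-loop-helix factors, by -0.20 (SE 0.06). The last 2 of the 14, Pde10a and Rgs9, are striatal genes. Of the 28 genes of both directions, 4 reached the level of 5 only in the group where they were higher. These were Krt18, with means of 5.35 in paired and 4.69 in unpaired arrays, Rap2b (4.32 and 5.31), Tef (4.57 and 5.13) and Pdlim5 (4.94 and 5.43). Such a gene had to differ to be listed.

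**Figure D4:**
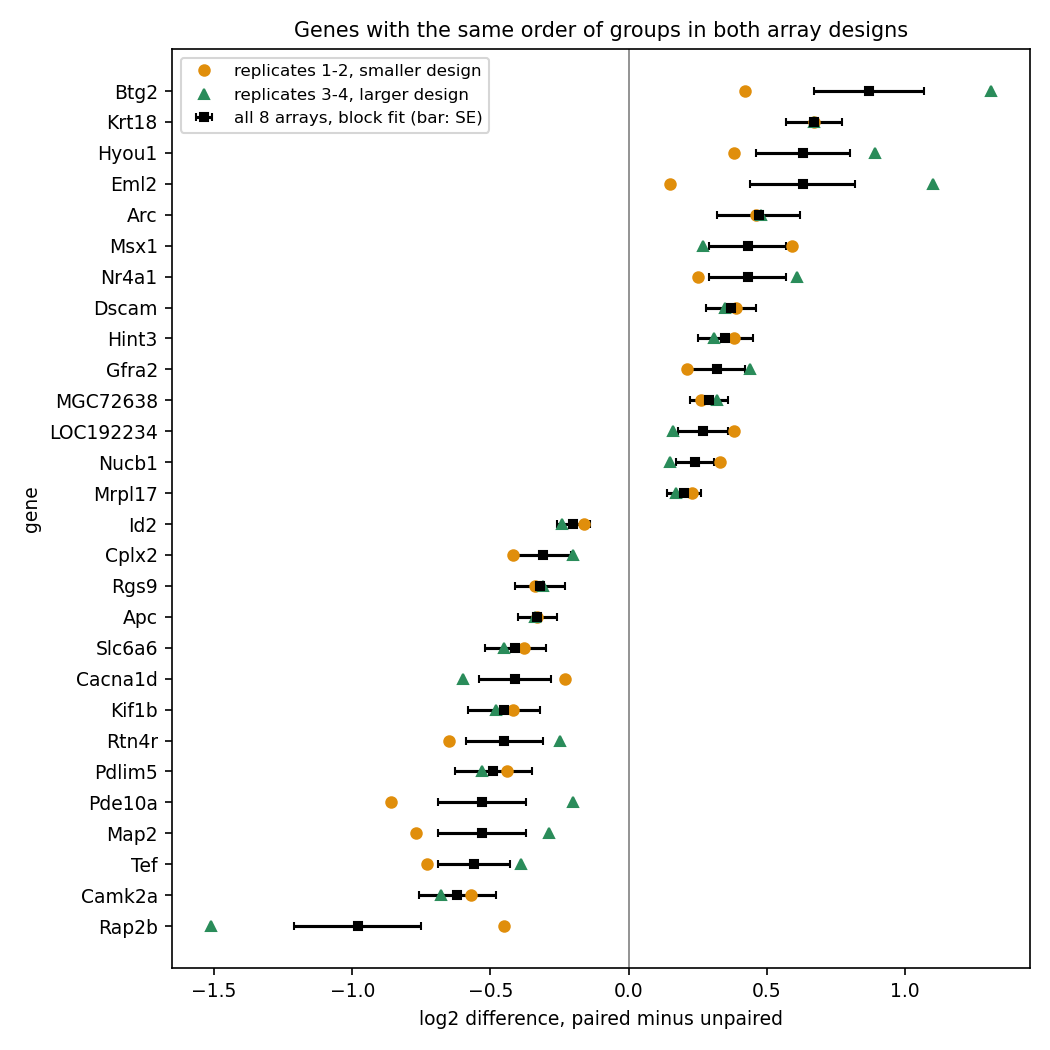
The x axis gives the log2 difference, paired minus unpaired, of the 14 genes per direction with the smallest p among those that keep the order of the groups in both array designs (y axis). Squares with bars are the fit to all 8 arrays and its SE, circles are replicates 1 and 2 and triangles replicates 3 and 4. Krt18, Arc and Apc have nearly the same value in both designs, while Btg2, Eml2 and Rap2b have a wider gap in replicates 3 and 4.

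Genes of striatal projection neurons measured lower in paired pups mainly on the smaller design. Of the 11 measured genes 9 were lower and 2 higher, with a median of -0.26, which was -0.42 in replicates 1 and 2 and 0.01 in replicates 3 and 4. Of the 11 genes, 3 had an unadjusted p under 0.05, all lower, where 1.29% of all probe sets were lower at that threshold. Of all 4837 genes 2995 were lower in paired pups. Pde10a, a phosphodiesterase of these neurons, measured 9.44, 9.78, 12.98 and 12.92 in paired arrays, against 10.23, 10.72, 13.17 and 13.13 in unpaired arrays (-0.53, SE 0.16), and its other probe set differed by -0.45 (SE 0.17). The paired arrays were lower in each design, and the gap between the array sets exceeded 2 log2 units in both groups. Rgs9, a regulator of G-protein signalling, measured 5.20, 5.36, 7.66 and 7.61 in paired arrays, against 5.62, 5.61, 7.99 and 7.90 in unpaired arrays, with nearly equal differences of -0.34 and -0.31. Adora2a, the adenosine receptor of the indirect pathway, measured 4.52, 3.53, 9.45 and 9.44 in paired arrays, against 5.10, 6.52, 9.22 and 9.34 in unpaired arrays. It was thus lower in paired replicates 1 and 2 (-1.78) and slightly higher in paired replicates 3 and 4 (0.17). The other Adora2a probe set was lower in paired arrays of both designs, by -0.78 and by -0.17. The 2 probe sets thus disagreed in sign on the larger design. Without unpaired replicate 2, the array with the highest striatal level on the smaller design, the median of the list was -0.10.

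Of the 14 measured genes of dopamine synthesis, transport and receptors, 7 were higher and 7 lower, with a median of 0.00, and 3 had an unadjusted p under 0.05, Maob and Slc6a3 (higher) and Drd2 (lower), where 2.95% of all probe sets had one. Their mean level was 5.85, 5.87, 5.88 and 5.78 in paired arrays, against 5.73, 5.73, 5.83 and 5.78 in unpaired arrays. Maob, a monoamine oxidase found largely in glia and serotonin neurons, measured 9.84, 9.68, 9.37 and 9.17 in paired arrays, against 9.70, 9.67, 9.01 and 8.91 in unpaired arrays (0.19, SE 0.08, unadjusted p = 0.0472). Drd2, the inhibitory dopamine receptor, measured 6.53, 6.18, 9.15 and 9.13 in paired arrays, against 6.83, 7.38, 9.25 and 9.16 in unpaired arrays. Paired arrays were lower in both designs, by -0.75 and by -0.06 (-0.41 over all 8 arrays, SE 0.18, unadjusted p = 0.0497), and without unpaired replicate 2 the difference was -0.23. Drd1, the stimulatory receptor, differed by -0.46 (SE 0.27) and -0.48 (SE 0.35) on its 2 probe sets, with -0.94 and -1.21 in replicates 1 and 2 and 0.01 and 0.24 in replicates 3 and 4. Drd1 and Drd2 also belong to the striatal list, and their levels followed that list across the arrays.

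Transcripts made in dopamine cell bodies differed on the smaller design, where they were higher in paired pups. Slc6a3, the plasma membrane dopamine transporter, measured 7.30, 7.15, 2.34 and 2.73 in paired arrays, against 5.63, 4.31, 2.62 and 2.30 in unpaired arrays (1.17, SE 0.45, unadjusted p = 0.0316). In replicates 1 and 2 the difference was 2.26, and the 4 arrays of replicates 3 and 4 were close to the floor of the arrays in both groups. Th, tyrosine hydroxylase, which makes the dopamine precursor, measured 9.17, 9.44, 3.83 and 6.20 in paired arrays, against 8.96, 7.26, 5.51 and 5.41 in unpaired arrays. It was higher in paired replicates 1 and 2 (1.20) and lower in paired replicates 3 and 4 (-0.45), and the other Th probe set, at 8.48 to 9.42 on all 8 arrays, differed by 0.01 (SE 0.13). Slc18a2, the vesicular monoamine transporter, differed by 1.63 in replicates 1 and 2 and by 0.08 in replicates 3 and 4. Over all 8 arrays it differed by 0.85 (SE 0.31, unadjusted p = 0.0251 by limma), on a probe set that the count above did not include. Ddc, the decarboxylase that forms dopamine, measured 7.09, 6.65, 5.30 and 4.76 in paired arrays, against 6.14, 6.07, 5.31 and 5.32 in unpaired arrays (0.24, SE 0.23). Without unpaired replicate 2 the Th difference over the remaining arrays was -0.13, that of Slc6a3 0.68, and without paired replicate 3 that of Th was 1.01.

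Beside these 4 transcripts, Aldh1a1, a retinaldehyde dehydrogenase found in some dopamine neurons, measured 6.50, 7.01, 1.64 and 2.96 in paired arrays, against 5.30, 5.28, 1.95 and 2.29 in unpaired arrays. The list of midbrain dopamine neuron identity (7 genes, 3 of them at a mean log2 of at least 5) had mean levels of 5.29, 5.27, 4.16 and 4.56 in paired arrays, against 5.08, 4.95, 4.08 and 4.32 in unpaired arrays. Nr4a2, the transcription factor of midbrain dopamine neurons that is also induced by activity, measured 8.34, 8.40, 6.32 and 7.88 in paired arrays, against 8.45, 8.35, 5.74 and 6.80 in unpaired arrays (0.40, SE 0.37). Its difference was -0.03 in replicates 1 and 2 and 0.83 in replicates 3 and 4, against 2.26 and 0.08 for Slc6a3. The part of tissue make-up in the dopamine differences was not tested.

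Of the 12 measured choroid plexus genes 8 were higher and 4 lower in paired pups, with a median of 0.07, which was 0.04 in replicates 1 and 2 and 0.08 in replicates 3 and 4. An unadjusted p under 0.05 was found for 2, Ttr and Aqp1, both higher, where 1.66% of all probe sets were higher at that threshold. Their larger differences lay in different designs. Ttr, the thyroid hormone carrier of the choroid plexus, measured 14.36, 14.22, 12.02 and 13.63 in paired arrays, against 14.07, 14.18, 7.21 and 10.39 in unpaired arrays (2.10, SE 0.91, unadjusted p = 0.0482). The groups did not overlap in either design, but the difference was 0.17 in replicates 1 and 2 and 4.02 in replicates 3 and 4, and without unpaired replicate 3 the difference over the remaining arrays was 1.07. Aqp1, a water channel, differed by 0.80 (SE 0.27), with 1.29 in replicates 1 and 2 and 0.31 in replicates 3 and 4. It measured 4.60, 5.01, 1.90 and 2.50 in paired arrays, against 3.03, 3.99, 1.91 and 1.88 in unpaired arrays. Both group means, 3.50 and 2.70, lay below log2 5, and replicates 3 and 4 were close to the floor of the arrays. Sostdc1, a secreted inhibitor of BMP and Wnt signals, measured 8.17, 7.49, 2.66 and 5.80 in paired arrays, against 7.08, 7.36, 2.13 and 2.04 in unpaired arrays (1.38, SE 0.62). Folr1, the folate receptor of the choroid plexus, measured 8.92, 8.17, 5.42 and 7.36 in paired arrays, against 8.06, 8.01, 4.72 and 5.45 in unpaired arrays (0.91, SE 0.41). Enpp2, another abundant choroid plexus gene, differed by 0.11 (SE 0.20), and Igf2 by 0.02 (SE 0.13). The amount of choroid plexus in each sample was not measured apart from these genes, and its part in the difference was not tested.

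Hypothalamic neuropeptide genes showed 9 of 12 measured members higher and 3 lower in paired pups, with a median of 0.25, which was -0.02 in replicates 1 and 2 and 0.38 in replicates 3 and 4. Cartpt, the precursor of CART peptides that is also made in the amygdala, measured 8.62, 8.87, 8.66 and 8.51 in paired arrays, against 8.81, 8.38, 6.57 and 7.16 in unpaired arrays (0.94, SE 0.31, unadjusted p = 0.0154). Its paired arrays were alike, and the 2 unpaired arrays of the larger design stood lower. Hcrt, the precursor of the orexins, measured 5.75, 6.89, 3.29 and 4.19 in paired arrays, against 5.26, 5.13, 2.72 and 3.52 in unpaired arrays (0.87, SE 0.31, unadjusted p = 0.0211). Avp, the vasopressin gene, measured 8.04, 7.26, 9.05 and 8.13 in paired arrays, against 8.65, 9.16, 6.13 and 6.71 in unpaired arrays. It was lower in paired replicates 1 and 2 (-1.26) and higher in paired replicates 3 and 4 (2.17), and Oxt, the oxytocin gene, ran the same way (-1.37 and 3.14). Pmch, the precursor of melanin-concentrating hormone, differed by 0.85 (SE 0.66), with the lowest value, 5.66, in unpaired replicate 3. Without that array the median of the list was 0.04.

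**Figure D5:**
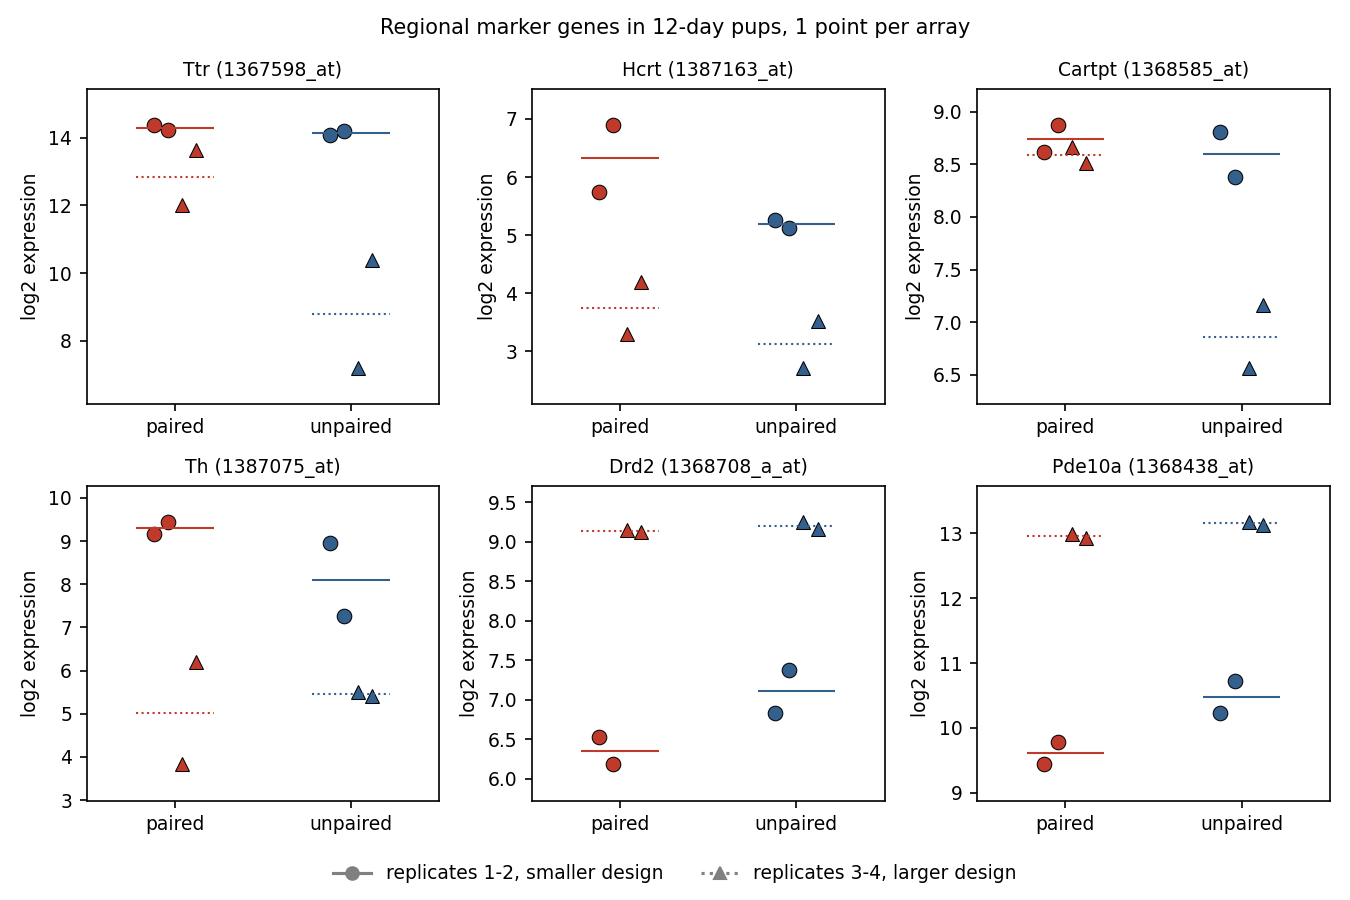
Log2 expression (y axis) of Ttr, Hcrt, Cartpt, Th, Drd2 and Pde10a in paired (left, red) and unpaired (right, blue) pups, 1 point per array. Circles are replicates 1 and 2, triangles replicates 3 and 4, and lines the means of each pair of arrays. Ttr and Cartpt are low in the 2 unpaired triangles (7.21 and 10.39 for Ttr), and Th, Drd2 and Pde10a differ more between circles and triangles than between the training groups.

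Rank products, the test that the design text of the series names, were run within the array designs. They called 36 probe sets (0.227%) at a pfp, the estimated share of false positives, under 0.05. Of these 32 were higher (0.202%) and 4 lower (0.0252%), and with the replicate number as a block 22 were higher and 13 lower. The pfp comes from shuffles within arrays and does not measure the spread between samples. Of the 36 probe sets, 26 had a gene symbol, 17 kept the order of the groups in both designs, and 6 had opposite signs in the 2 designs. In 17 the size of the log2 difference in 1 design was more than 3 times that in the other. Genes called higher, besides those described above, included the choroid plexus gene Aqp1. The coagulation factor F5 differed by 0.83 (SE 0.34) and the intermediate filament gene Prph by 0.72 (SE 0.35). With a symbol, 2 genes were called lower, Rap2b and Camk2a.

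For the lists of plasticity genes, transmitter receptors and glia the counts stand beside those of all 4837 genes, of which 1842 were higher and 2995 lower in paired pups, and beside the 2.95% of all probe sets at an unadjusted p under 0.05. In the list of plasticity kinases and neurotrophins 7 of 19 genes were higher and 12 lower (median -0.09), and 2 had an unadjusted p under 0.05, Camk2a and Shank2. Shank2, a scaffold of the postsynaptic density, measured 10.43, 9.97, 10.57 and 10.78 in paired arrays, against 10.47, 10.48, 10.88 and 10.92 in unpaired arrays (-0.25, SE 0.10), and without paired replicate 2 the difference was -0.15. Camk4, a kinase that acts on CREB, differed by -0.59 (SE 0.28), with -1.16 in replicates 1 and 2 and -0.02 in replicates 3 and 4. Of the 16 ionotropic glutamate receptor genes 7 were higher and 9 lower, with a median of 0.00. Of 12 GABA-A receptor subunits 3 were higher and 9 lower, with a median of -0.03. No member of either receptor list had an unadjusted p under 0.05. Among the noradrenaline and serotonin receptors, Adra1b, an alpha-1 adrenergic receptor, measured 6.75, 6.82, 6.13 and 6.08 in paired arrays, against 6.70, 6.74, 5.52 and 5.89 in unpaired arrays (0.23, SE 0.12), and 5 of 19 genes were higher and 14 lower.

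Myelin genes were lower in paired pups in 14 of 15 measured members, by a median of -0.09, and 0 had an unadjusted p under 0.05. The mean level of the list was 10.64, 10.77, 9.91 and 10.41 in paired arrays, against 10.63, 10.47, 10.47 and 10.52 in unpaired arrays. Paired replicate 3 alone stood low, and without it the median was 0.02. Mobp, a protein of compact myelin, measured 11.18, 11.11, 9.87 and 10.36 in paired arrays, against 11.10, 11.11, 10.82 and 10.92 in unpaired arrays (-0.35, SE 0.17), and without paired replicate 3 it differed by -0.17. Astrocyte genes were lower in 11 of 15 members, with a median of -0.01, as over all genes. Of these 2 had an unadjusted p under 0.05, Ntsr2, a neurotensin receptor of astrocytes (-0.16, SE 0.06), and Aqp4, the astrocyte water channel (-0.22, SE 0.09). Slc1a3, a glutamate transporter, had another such probe set (-0.36, SE 0.14). Among microglial genes 8 of 9 were lower (median -0.05), with Aif1, a marker of microglia, at -0.34 (SE 0.15, unadjusted p = 0.046).

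The pairing difference at 12 days was set against that of 8-day saline pups (7 paired and 7 unpaired arrays), which share no array with it. Limma on all 28 arrays, with condition by array design as a block, called 0 probe sets (0%) at an adjusted p under 0.05 and 343 (2.16%) at an unadjusted p under 0.05, of which 142 (0.895%) had a higher and 201 (1.27%) a lower pairing difference at 12 days. Without 12-day unpaired replicate 4 the unadjusted count was 962, and without 12-day paired replicate 2 it was 787. The fit with the replicate number as a block gave 614 and 0 calls, and centring each array on its median gave 157 higher and 92 lower. For the genes of dopamine cell bodies the pairing difference was higher at 12 days. It was higher by 2.97 for Slc6a3 (unadjusted p = 0.00283) and by 2.11 for Th (unadjusted p = 0.025). For Slc18a2 it was higher by 1.50 (unadjusted p = 0.00216) and for Ddc by 1.20 (unadjusted p = 0.00824). The other Th probe set gave 0.16 (unadjusted p = 0.54). In saline pups these genes averaged lower after paired training, at 3.12 in paired against 4.92 in unpaired arrays for Slc6a3, 5.55 against 7.28 for Th and 4.85 against 5.81 for Ddc, and these differences enter the contrast. For Drd1 it was lower by -1.55 (unadjusted p = 0.0711) and for Rgs9 by -0.70 (unadjusted p = 0.0159). Immediate early genes lay on both sides of 0 in this contrast. Btg2, Nr4a1, Arc and Dusp1, which measured higher in paired 12-day pups, gave 0.78, 0.44, 0.33 and 0.58 (unadjusted p = 0.125, 0.137, 0.0886 and 0.0452). Their 12-day differences enter the contrast. Egr1 gave -0.26 (unadjusted p = 0.101), Egr4 -0.23, Nr4a3 -0.19 and a Homer1 probe set -0.44. The other Btg2 probe set gave 0.65 (unadjusted p = 0.0555) and the other Dusp1 probe set 0.17 (unadjusted p = 0.46). None of these passed the adjustment, so a different effect of pairing at 12 days and in 8-day saline pups was not shown for any of them.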

How the data were processed

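Amygdala RNA of 8 arrays, 4 from paired and 4 from unpaired 12-day pups, was analysed, grouped and numbered by the sample titles. The authors deposited log2 expression values per array, for which RMA and GCRMA are named, unversioned, in the submitters' processing notes. The authors' deposited table for 12-day pups gives a fold ratio of unpaired to paired pups, which equalled differences of the log2 values to within 0.000307, and it supplied accessions and symbols. Its calls and the 8-day tables were not used.

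The 15866 probe sets on both array designs were tested without a filter. Symbols were matched to RefSeq genes of GRCr8 by accession or synonym, giving 6027 probe sets with a symbol (3079 by accession, 1891 by a current symbol, 727 by an older symbol, 330 as in the file) for 4837 genes, with 9839 unnamed. For lists, each gene was represented by its brightest probe set.

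Training was tested with limma 3.58.1 in R 4.3.3 (lmFit and trended eBayes, with p-values adjusted by Benjamini-Hochberg and called under 0.05), with the array design as a block. The comparison with saline pups was fitted to all 28 arrays, which share the spread, with condition by design as a block. Rank products ranked paired minus unpaired differences within designs, with 100 shuffles. Both were tested on simulated data. The other values came from Python 3.11.15 (pandas 2.3.3, numpy 2.4.6) and plots from matplotlib 3.10.9.

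The rule for named genes took, per direction, the 14 genes with the smallest p among those with the same order in both designs whose higher group averaged at least 5 in log2. It added measured members of the dopamine, immediate early, choroid plexus and hypothalamic lists, up to 4 of each other list, and Ttr, Hcrt, Btg2, Slc6a3 and Aldh1a1. The members, the 22 lists and these rules were chosen with earlier results of these data known. Further genes that rank products called were named after their values were seen.

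Replicate numbers come from the titles. Deviations of same-numbered arrays from their group means correlated at 0.67, 0.60, 0.73 and 0.70, and within the array designs, which the numbers follow, at 0.23 on the larger and -0.08 on the smaller design. Detection calls were not used, and signal over background was not judged. Alternatives were other blocks, each design alone, scaling, a level filter, no trend, a shared spread over 28 arrays, rank products and leaving out each array.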

Additional observations from a re-analysis of the deposited data

Results flagged for a closer look

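Among the 4 arrays of each training group, 1 array stood apart from the other 3 (gap over range above Dixon's 95% critical value) in 18 of 286 groups of named probe sets, where chance flags about 1 in 20 if the 4 arrays share 1 spread. Each group held 2 arrays of each design, so that this rate is only a guide.

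Paired replicate 3 was low for the myelin genes Mog (8.54, others 9.48 to 9.62) and Cldn11 (8.70, others 9.48 to 9.61) and for the thalamic transcription factor Shox2 (4.73, others 7.32 to 7.63), and high for somatostatin, Sst (10.90, others 10.45 to 10.51). These 4 genes mark different cells, and in this array myelin and thalamic genes were low together. Shox2 was also lowest in replicate 3 among the unpaired arrays (5.02, others 6.30 to 7.78).

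Paired replicate 1 was low for the glutamate receptor subunit Gria3 (7.35, others 8.17 to 8.31), for 2 Jun probe sets (8.26 and 7.54, others 8.68 to 8.75 and 7.65 to 7.66), Sik1 (8.33, others 8.47 to 8.49) and Egr4 (7.95, others 8.07 to 8.10), and high for Foxj1 (5.98, others 5.89 to 5.91). Of these genes, Jun, Sik1 and Egr4 belong to the immediate early list. Paired replicate 2 was high for a Dusp1 probe set (6.20, others 5.34 to 5.42) and for the complement gene C1qb (8.55, others 7.93 to 7.96).

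Unpaired replicate 1 was high for the collagen gene Col1a1 (9.51, others 8.64 to 8.72), the GABA-A receptor subunit Gabrd (8.37, others 7.94 to 7.97), Bcas1 (11.89, others 11.58 to 11.61) and the mineralocorticoid receptor Nr3c2 (7.48, others 7.43 to 7.44). It was low for the dimmer Btg2 probe set (4.36, others 5.21 to 5.36). Unpaired replicate 3 was low for Nr4a1 (8.90, others 9.23 to 9.29). The last 2 bear on the immediate early genes: without unpaired replicate 1 that Btg2 probe set differed by 0.24, and Nr4a1 by 0.30 to 0.51 over all runs without 1 array.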

How the results depend on the processing

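For training at 12 days limma called 0 probe sets under every alternative run except the smaller design alone, where it called 1, an unnamed probe set. Rank products called 36 within designs, 8 over all 16 pairs of arrays (8 higher, 0 lower) and 35 with the replicate block. With that block 22 were higher and 13 lower, against 32 and 4 within designs. At an unadjusted p under 0.05 the count of 468 was 73 without the block, 246 with the spread of all 28 arrays, and 392 to 578 when 1 array was left out, lowest without unpaired replicate 3. With the level filter it was 372, with the replicate block 428, of which 324 were among the 468, and on each design alone 539 (smaller) and 668 (larger), where 157 and 168 were shared with the 468. More were lower than higher on the larger design alone (281 higher, 387 lower) and without unpaired replicate 2 (235 higher, 269 lower), against 264 higher and 204 lower over all 8 arrays. The 537 probe sets with the same order in both designs became 983 to 1274 without 1 array, since fewer arrays must then be in order. For the difference between 12-day and saline pups the count of 343 was 87 without the block, 614 with the replicate block, 606 with replicates 1 to 4 and 238 to 962 when 1 array was left out. It was 850 without saline unpaired replicate 5, 534 without 12-day unpaired replicate 2, and adjusted calls ranged from 0 to 1. Of 143 named probe sets 119 kept their sign on the smaller design alone and 120 on the larger, and the 28 leading ones kept theirs on both, as their choice requires.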

Other observations

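A difference between the groups of over 1.5 log2 units in at least 1 array design was listed after the values were seen. It was found for 23 probe sets, and 10 of these were lower in paired pups on the larger design, of which 9 had no gene symbol here. Probe set 1376129_at measured 3.37, 3.53, 5.47 and 3.88 in paired arrays, against 3.41, 2.97, 8.82 and 6.91 in unpaired arrays. Probe set 1375777_at measured 2.66, 2.71, 3.70 and 4.74 in paired arrays, against 2.25, 2.23, 7.80 and 6.36 in unpaired arrays. In both, the 2 unpaired arrays of the larger design stood high, the arrays in which Ttr and Cartpt stood low.

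Other unnamed probe sets varied from array to array apart from training. Probe set 1371776_at measured 2.42, 8.30, 9.73 and 4.67 in paired arrays, against 2.41, 2.51, 9.94 and 4.76 in unpaired arrays, so same-numbered arrays of the larger design were alike. Probe set 1390722_at measured 10.16, 9.86, 11.84 and 6.01 in paired arrays, against 4.68, 10.34, 12.77 and 11.81 in unpaired arrays, with 1 low array in each group. Probe set 1388497_at differed evenly, at 8.51, 8.77, 8.13 and 8.37 in paired arrays, against 8.18, 8.14, 7.68 and 7.67 in unpaired arrays (0.52, SE 0.09, unadjusted p = 0.000324).

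Among vascular genes, the 3 probe sets of Sparc, a matrix protein, disagreed. One differed by 0.11 (SE 0.06) and another by -0.19 (SE 0.07), each with the same order of groups in both designs, and the other by 0.02 (SE 0.08). All 6 measured genes of the blood list measured lower in paired pups, by a median of -0.05, with unpaired replicate 1 at the highest list level, 7.49. Without that array the median was 0.02.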
